A study of Mus musculus with 6 samples.

Results

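Transcripts of 7 histone deacetylases (Hdac1, Hdac2, Hdac3, Hdac4, Hdac5, Hdac7 and Hdac9), the sirtuin Sirt1 and the corepressor Ncor1 were followed in splenic regulatory T cells (Treg) of the mouse. These 9 genes were taken by name as enzymes and corepressors through which a repressor such as Bach2 may act, and each matched 1 Ensembl identifier among the 36811 rows of the table. The group labelled cKO carried the genotype Bach2fl/fl Foxp3EGFP-Cre-ERT2, that is, floxed Bach2 alleles with a tamoxifen-dependent Cre recombinase and an EGFP reporter placed at Foxp3. The group labelled WT carried Bach2+/+ with the same Foxp3EGFP-Cre-ERT2 allele, so both groups share the reporter and the recombinase. All 6 libraries, 3 in each group, came from C57BL/6 mice aged 18 to 21 weeks. EGFP-positive CD4 T cells were sorted and libraries were made with SmartSeq2, which amplifies cDNA from small amounts of RNA. The recombinase acts in cells that express Foxp3 and needs tamoxifen. The sources used here give no dose or schedule. Nothing in the labels says whether each library is 1 animal, so a p-value reflects only how far these libraries vary, which may be technical.

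Histone deacetylases remove acetyl groups from histone tails and other proteins, which generally goes with compacted chromatin and lower transcription. They do not bind specific DNA letters themselves and reach genes through DNA-binding repressors and scaffold proteins. Class I enzymes (Hdac1, Hdac2, Hdac3) are mostly nuclear and carry most of the catalytic activity. Class IIa enzymes (Hdac4, Hdac5, Hdac7, Hdac9) have weak activity of their own, bind Mef2 factors, and leave the nucleus when kinases phosphorylate them after receptor signalling. Ncor1 is the scaffold that binds and activates Hdac3, and mouse B cell work has placed Bach2 together with this pair. Sirt1 uses NAD+ instead of zinc and is known to deacetylate Foxp3. Mice without Hdac9 have been described as having more suppressive Treg.

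The values are FPKM, fragments scaled for transcript length and library size, so levels can be set side by side between genes. Sequencing depth is not stated, and the steps between low values put the scale at about 3000000 to 5000000 fragments per library. T cell and Treg markers were present in each library, with Foxp3 at 6.59, 9.44 and 5.75 FPKM in cKO 1, 2 and 3, against 7.004, 5.16 and 7.51 FPKM in WT 1, 2 and 3. Bach2 itself stood at 7.88, 9.19 and 6.44 FPKM in cKO, against 3.29, 8.25 and 4.80 FPKM in WT, so the groups overlapped and the cKO mean, 7.84 FPKM, was above the WT mean, 5.45 FPKM. They are whole-gene values and the floxed exons are not named, so they do not check the labels. Every direction below rests on the labels alone. Among 11979 genes tested, 3 passed an adjusted p of 0.05 (0.025%). Library cKO 2 was the lowest or the highest of the 6 in 48.8% of genes tested, the largest such share of any library, and its values are therefore named beside the results.

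No deacetylase or corepressor passed the test between cKO and WT. The 4 most abundant, Hdac1, Hdac2, Hdac3 and Ncor1, had log2 differences between -0.12 and 0.09, and each interval is given below. Of the 9 genes, 8 averaged 1 FPKM or more and were tested. Hdac9 lay under that limit, at a mean of 0.761 FPKM, and Sirt1 just inside it at 1.13 FPKM. Of the 8 tested, 0 passed over all genes, and 0 had an unadjusted p under 0.05, against 5.37% of all genes tested. Exact two-sided permutation tests of the 8 gave p from 0.3 to 1. The groups overlapped in each of the 8, while 10.7% of all genes tested had groups that do not overlap. The median log2 difference over all 9 genes was -0.014, beside 0.033 over all genes tested. Hdac9 was the only gene of the 9 whose groups did not overlap, and it was lower in cKO.

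**Figure D1:**
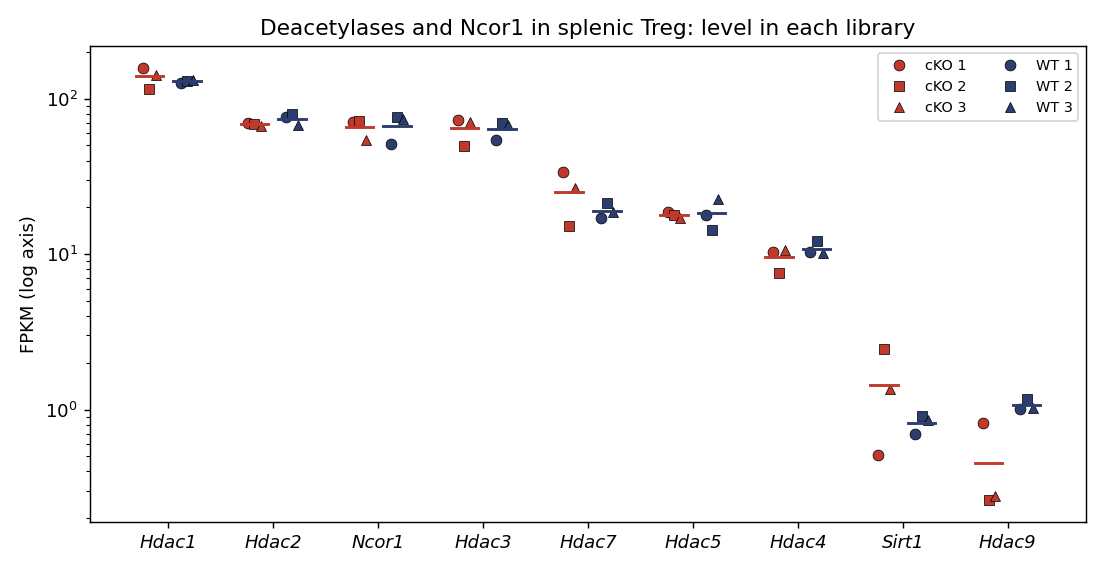
FPKM (log axis) of each gene in each library, ordered by the mean over the 6 libraries, with cKO to the left of WT and a bar at each group's mean. Hdac1 is the highest in every library, and only for Hdac9 do the cKO points, 0.262 to 0.819 FPKM, lie apart from the WT points, 1.01 to 1.17 FPKM.

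The sequence shown is a promoter of Hdac9. It was picked for a match of letters before the start, and not for the difference between groups. The groups of Hdac9 did not overlap, as in 10.7% of all genes tested, a share that leaves Hdac9 out. RefSeq (build GRCm38.p6) lists 2 starts for Hdac9, and the 250 bases before the inner of them hold a copy of the letters TGANTCA. With N as any letter, this is looser than the core shared by AP-1 sites and the longer Bach and Maf element. That core usually has C or G in the middle, where this copy has T. The window lies on the minus strand at chr12:34528890-34529139, and capitals mark the match, TGATTCA, whose first base is 57 bases before the start.

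Hdac9 promoter: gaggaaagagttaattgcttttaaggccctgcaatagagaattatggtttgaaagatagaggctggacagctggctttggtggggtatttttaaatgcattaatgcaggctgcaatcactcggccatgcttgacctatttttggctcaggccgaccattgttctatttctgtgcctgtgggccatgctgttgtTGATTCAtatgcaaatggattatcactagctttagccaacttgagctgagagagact

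Both strands were searched over windows of 250 bases before to 50 after each start. TGANTCA reads the same on both strands. It occurred in 7.81% of 32851 windows of all genes and in 2 of 12 windows of these genes, 1 of 2 for Hdac9 and 1 of 4 for Hdac7, where it lay after the start. The longer form, with TGC directly before TGANTCA and so containing the short one, occurred in 0.423% of all windows and in 0 of the 12. Hdac2, Hdac4, Hdac5, Sirt1 (1 window each) and Ncor1 (2 windows) held neither. The windows matched 7 of the 9 genes, all but Hdac1 and Hdac3. These matches describe letters only, and no binding was measured here.

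Among class I enzymes, Hdac1 was the most abundant gene of the 9. It stood at 158.5, 115.6 and 142.8 FPKM in cKO 1, 2 and 3, against 125.8, 130.8 and 132.2 FPKM in WT 1, 2 and 3. The cKO libraries held both the highest and the lowest value, with cKO 2 below every WT library. The log2 difference was 0.09 (standard error 0.148; 95% interval -0.26 to 0.44), with adjusted p = 0.965 by limma with Benjamini-Hochberg adjustment. A processed pseudogene of Hdac1, Gm10093, was listed at 5.13 to 7.88 FPKM, and reads may have been divided between them.

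Hdac2, the close relative of Hdac1 in the Sin3, NuRD and CoREST complexes, stood at 69.8, 68.3 and 66.7 FPKM in cKO, against 75.7, 79.4 and 67.7 FPKM in WT. The cKO libraries were close together, and WT 3 lay among them. The log2 difference was -0.12 with an interval from -0.40 to 0.17 (limma, adjusted p = 0.934), the narrowest interval of the 8. The ratio of Hdac1 to Hdac2 was 2.27, 1.69 and 2.14 in cKO and 1.66, 1.65 and 1.95 in WT, with cKO 2 among the WT values.

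Hdac3, the catalytic partner of Ncor1, stood at 73.3, 49.9 and 70.4 FPKM in cKO, against 54.6, 69.8 and 67.9 FPKM in WT. Each group held 1 low library, cKO 2 and WT 1. The log2 difference was -0.0027 with an interval from -0.46 to 0.46 (limma, adjusted p = 0.9997). Leaving out 1 library gave values from -0.11 to 0.17, the highest without cKO 2, and none passed.

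Ncor1 stood at 70.5, 72.1 and 54.4 FPKM in cKO, against 50.8, 75.8 and 73.8 FPKM in WT. Here too each group held 1 low library, cKO 3 and WT 1, and the log2 difference was -0.014 with an interval from -0.50 to 0.47 (limma, adjusted p = 0.999). The ratio of Hdac3 to Ncor1 was 1.04, 0.692 and 1.29 in cKO and 1.07, 0.920 and 0.921 in WT. The transcripts of the enzyme and of its scaffold were thus at like FPKM in WT, and cKO 2 and cKO 3 lay at opposite ends of the 6. Protein was not measured. Exons of Ncor1 overlap those of Ttc19 and Pigl on the other strand, and the sources used here do not say whether counting used strand.

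The summed level of the 3 class I genes averaged 272 ± 34.6 FPKM in cKO and 268 ± 11.9 FPKM in WT (SD, n = 3 each). Hdac1 made up 49.5% to 52.5% of that sum in cKO libraries and 46.7% to 49.4% in WT libraries. The nearest libraries, cKO 2 at 49.45% and WT 3 at 49.35%, were almost equal. No background was taken for such shares, while 10.7% of all genes tested had levels that do not overlap.

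Class IIa enzymes were lower than class I in each library, with a summed level of 52.9 ± 11.3 FPKM in cKO and 49.2 ± 3.22 FPKM in WT (SD, n = 3 each). Hdac7, which is high in thymocytes and binds Mef2d there, had the highest mean of this class. It stood at 33.6, 15.2 and 26.6 FPKM in cKO, against 17.1, 21.2 and 18.8 FPKM in WT. The values of cKO 1 and cKO 3 were above every WT library and that of cKO 2 was below every WT library. The log2 difference was 0.32 with an interval from -0.36 to 1.01 (limma, adjusted p = 0.928). It was 0.09 without cKO 1 (limma, unadjusted p = 0.760, adjusted p = 0.937) and 0.63 without cKO 2 (limma, unadjusted p = 0.0136, adjusted p = 0.969). With library quality weights it was 0.49 (limma, unadjusted p = 0.0461, adjusted p = 0.432). An exon of Slc48a1 overlaps Hdac7 on the other strand, and it stood at 27.1 to 36.5 FPKM in the 6 libraries.

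Hdac5, a signal-dependent partner of Mef2 factors, stood at 18.6, 17.7 and 17.0 FPKM in cKO, against 17.9, 14.2 and 22.7 FPKM in WT. The WT libraries enclosed all 3 cKO values, and the log2 difference was -0.015 with an interval from -0.48 to 0.45 (limma, adjusted p = 0.999). Hdac4, its relative with the same partners, stood at 10.3, 7.60 and 10.7 FPKM in cKO, against 10.3, 12.1 and 10.2 FPKM in WT. Only cKO 2 was outside the WT range on the low side, and the log2 difference was -0.18 with an interval from -0.63 to 0.27 (limma, adjusted p = 0.935). It was -0.041 without cKO 2.

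Hdac9 was the scarcest of the class. It stood at 0.819, 0.262 and 0.276 FPKM in cKO 1, 2 and 3, against 1.01, 1.17 and 1.03 FPKM in WT 1, 2 and 3. All 3 cKO values were below all 3 WT values, with cKO 1 nearest to WT. The means were 0.452 ± 0.317 FPKM in cKO and 1.07 ± 0.0855 FPKM in WT (SD, n = 3 each), 2.37-fold lower in cKO. Among 1206 genes with a mean from 0.5 to 1 FPKM, 4.98% had groups that do not overlap with the lower values in cKO. An exact two-sided permutation test gave p = 0.1, the smallest that 3 libraries against 3 allow. In a fit with no filter on low values Hdac9 differed by -0.53 on the log2(FPKM + 1) scale (limma, unadjusted p = 0.0365, adjusted p = 0.886), and with a minimum mean of 0.5 FPKM, chosen after its values were seen, the interval ran from -1.19 to 0.13 (adjusted p = 0.924).

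Few fragments lay behind these values. With the longest coding transcript of Hdac9, 7940 bases, the estimate was 23, 10 and 9 fragments in cKO and 36, 28 and 32 in WT. With the shortest, 753 bases, it was 2, 1 and 1 in cKO and 3 in each WT library. The log2 difference of Hdac9 stayed below 0 in the 12 alternatives that gave a value, from -1.22 with a pseudocount of 0.1 to -0.16 with a pseudocount of 5. As its groups do not overlap, only a change of scaling could have turned this sign. Pseudocounts, filters and leaving out 1 library could not.

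**Figure D2:**
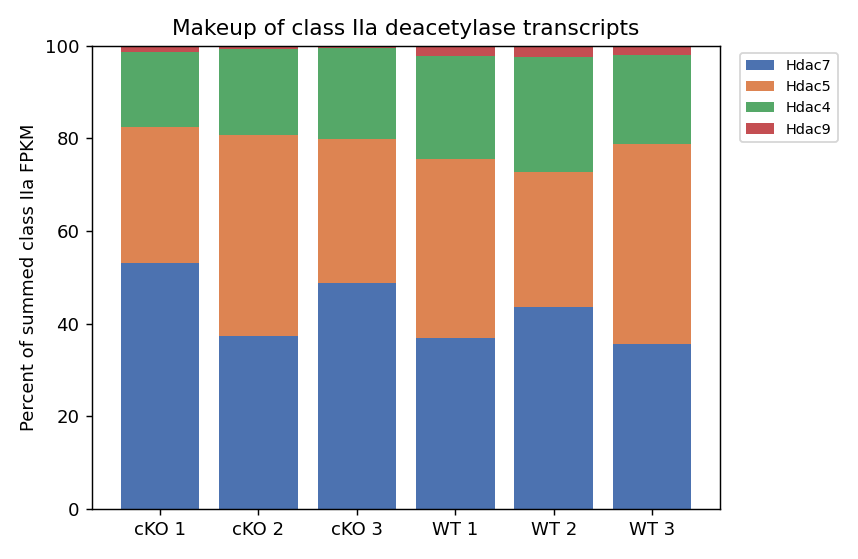
Share of each class IIa gene in the summed class IIa FPKM of a library, in percent, with cKO libraries on the left. Hdac9, the thin top segment, takes 0.506% to 1.29% in cKO and 1.96% to 2.40% in WT, and Hdac7 takes 53.1%, 37.3% and 48.8% in cKO and 37.0%, 43.6% and 35.6% in WT.

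Within the class IIa sum, Hdac9 averaged 0.814% ± 0.421 in cKO and 2.18% ± 0.223 in WT (SD, n = 3 each), and the groups did not overlap. This share rests on the same low values of Hdac9 and is not a separate result. Hdac4 averaged 18.2% ± 1.71 in cKO and 22.1% ± 2.75 in WT. Hdac7 averaged 46.4% ± 8.16 in cKO and 38.7% ± 4.25 in WT. The shares add to a fixed whole, so 1 gene's share moves the others. For Hdac7 the cKO 2 share of 37.3% lay within the WT range, and the difference was smaller than the spread between cKO libraries.

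Sirt1 was scarce as well, at 0.507, 2.45 and 1.35 FPKM in cKO, against 0.695, 0.903 and 0.860 FPKM in WT. The cKO libraries held the lowest and the highest value, with cKO 2 at the top. The log2 difference was 0.34 with an interval from -0.59 to 1.27 (limma, adjusted p = 0.946), the widest of the 8. It was 0.65 without cKO 1 and 0.05 without cKO 2, where its mean lay under the filter and it was not tested. Taking its longest coding transcript, 4430 bases, the estimate was 8, 55 and 24 fragments in cKO and 14, 12 and 15 in WT. An antisense gene, Gm16145, overlaps exons of Sirt1 and was listed at 0 in all 6 libraries.

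**Figure D3:**
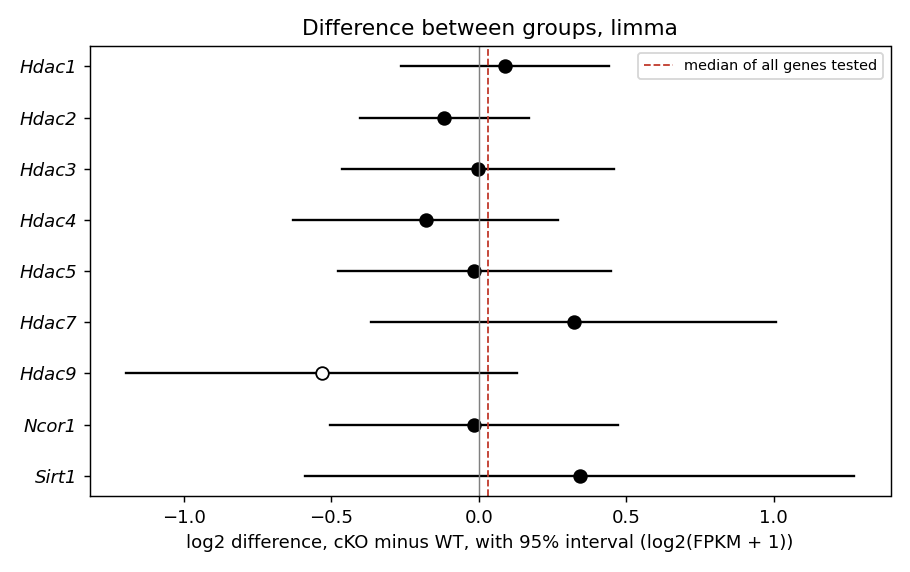
Log2 difference, cKO minus WT, of log2(FPKM + 1) with its 95% interval from limma. Filled points are the 8 genes tested in the fit over all genes, and the open point is Hdac9 from the fit with a minimum mean of 0.5 FPKM. Every interval shown includes 0. The interval of Hdac9 with no filter on low values, -1.02 to -0.046, is not drawn and leaves out 0.

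Ordered by the mean over the 6 libraries, Hdac1 (134 FPKM) was followed by Hdac2 (71.3), Ncor1 (66.2) and Hdac3 (64.3), then by Hdac7 (22.1), Hdac5 (18.0) and Hdac4 (10.2), and last by Sirt1 (1.13) and Hdac9 (0.761). Hdac1 exceeded Hdac2 in 6 of 6 libraries with no overlap of their ranges. Hdac2, Ncor1 and Hdac3 did not differ beyond their spread, as Hdac2 exceeded Ncor1 in 3 of 6 libraries and Ncor1 exceeded Hdac3 in 3 of 6. Hdac7 and Hdac5 overlapped likewise, with Hdac7 higher in 3 of 6. Sirt1 and Hdac9 overlapped too, with Sirt1 higher in 2 of 6, while Hdac3 exceeded Hdac7, Hdac5 exceeded Hdac4 and Hdac4 exceeded Sirt1 in 6 of 6 without overlap. The mean level of Hdac1 was above 91.1% of the genes tested, that of Hdac7 above 60.4% and that of Sirt1 above 1.78%.

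**Figure D4:**
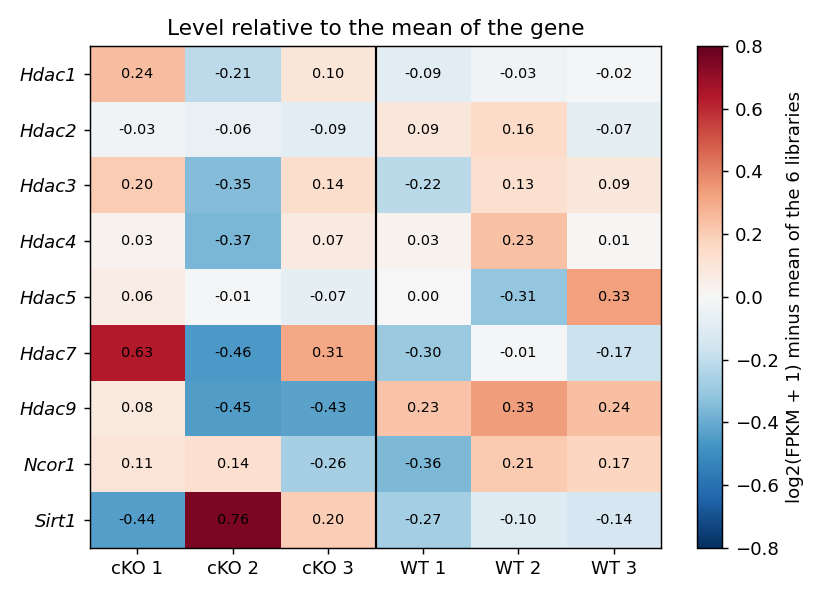
Log2(FPKM + 1) of each gene in each library minus the gene's mean over the 6 libraries, cKO on the left of the line and WT on the right. The cKO 2 column is lowest for Hdac1, Hdac3, Hdac4, Hdac7 and Hdac9 and highest for Sirt1, at 0.76.

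The 3 cKO libraries did not move together. Library cKO 2 held the lowest value of 5 of the 9 genes (Hdac1, Hdac3, Hdac4, Hdac7 and Hdac9) and the highest of 1 (Sirt1). Over all genes tested it was lowest in 23.4% and highest in 25.4%. Its FPKM values also had the smallest sum of any library, 1502822, against 1635469 to 1940807 in the others. The values printed here were not rescaled, and the part of this sum in the low values of cKO 2 was not tested. Library cKO 1 held the highest value of 3 of the 9 and WT 2 that of 4. Hdac7 spread 2.21-fold between its highest and lowest library, against 1.19-fold for Hdac2. The scarce genes Hdac9 and Sirt1 spread 4.46-fold and 4.84-fold. Library cKO 2 also held the highest level of the neutrophil transcript S100a8, at 545 FPKM, against 152 and 74.6 FPKM in the other two cKO libraries and 86.8 to 123 FPKM in WT.

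Markers of other cells could be compared with these levels. The summed FPKM of 8 myeloid markers ran from 206 to 884 in cKO and from 174 to 299 in WT, and that of 4 erythroid markers from 129 to 277 in cKO and from 33.0 to 112 in WT. B cell markers summed to 114 to 155 in cKO and 106 to 150 in WT over 6 genes, and CD8 and NK cell markers to 21.2 to 23.6 in cKO and 23.3 to 24.4 in WT over 5 genes. None of these markers was at 0 in all libraries, Ly6g was listed at 0 in cKO 3 and in the 3 WT libraries. Most of the CD8 and NK cell sum was Cd8b1, at 18.8 to 22.4 FPKM in the 6 libraries, while Cd8a stood at no more than 0.531 FPKM in any of them. Klrd1, an NK cell receptor, stood at 0, 0.546 and 0.336 FPKM in cKO, against 3.46, 1.81 and 1.35 FPKM in WT, without overlap (limma, unadjusted p = 0.0136, adjusted p = 0.874). Klrb1c, another, was 0.483 to 0.742 FPKM in cKO and 0.866 to 1.504 FPKM in WT. Ncr1, also an NK cell marker listed, overlapped between groups and had the higher mean in cKO. It stood at 0.813, 0 and 0.740 FPKM in cKO, against 0.324, 0.482 and 0 FPKM in WT. The part of other cells in the levels of the deacetylases was not tested, and in bulk RNA fewer cells of a type and less RNA per cell cannot be told apart.

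Genes whose profile over the 6 libraries was nearest to a member were sought among protein-coding genes within 2-fold of its mean, by the root mean square distance of centred log2(FPKM + 1). Pef1 was nearest to Hdac2 (0.024, of 2259 candidates), Ddx58 to Hdac3 (0.039, of 2405) and C2cd5 to Hdac4 (0.036, of 3167). Trp53i11 was nearest to Hdac1 (0.055), Tnfsf11 to Hdac7 (0.062), Ppp3ca to Ncor1 (0.067) and Casc3 to Hdac5 (0.074). Sept4 was nearest to Sirt1 (0.12) and Pomt2 to Hdac9 (0.14). With 6 libraries and this many candidates a small distance is a description of these libraries only.

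The complexes in which these enzymes work showed no call either. Across 8 lists of partners and related genes, 99 of 102 genes were tested and 0 passed over all genes. At an unadjusted p under 0.05 there were 2 higher and 2 lower in cKO (4.04% of the 99), where 3.59% of all genes tested were higher and 1.78% lower. The groups did not overlap in 8 higher and 5 lower (13.1% of the 99), where 6.96% of all genes tested were higher and 3.75% lower in this way.

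**Figure D5:**
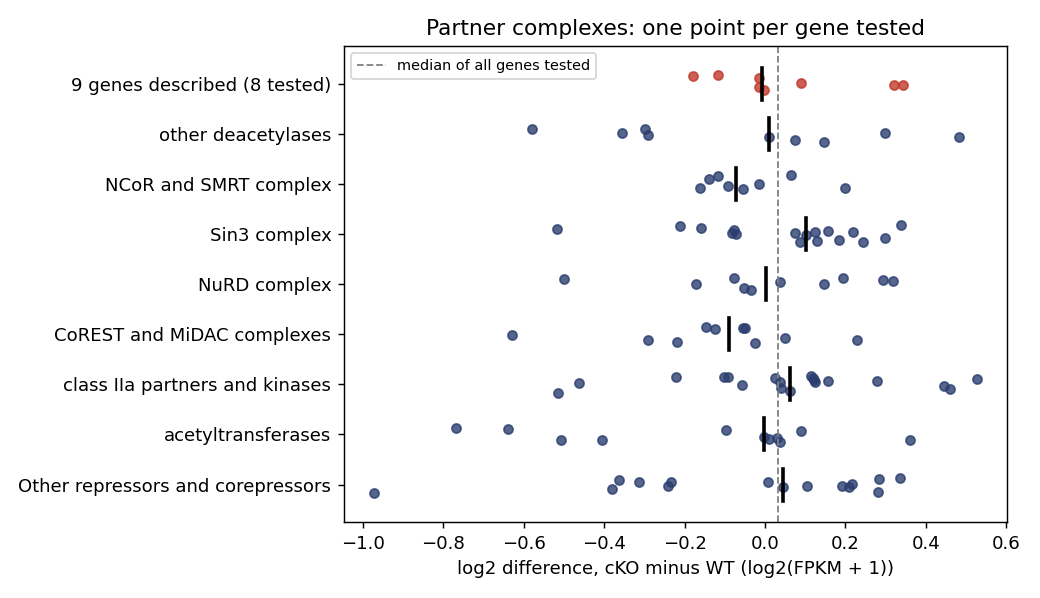
Log2 difference, cKO minus WT, of each gene tested, by list, with a black bar at the list's median and a dashed line at the median of all genes tested, 0.033. List medians lie between -0.09 and 0.10.

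Among the other deacetylases, 0 of 9 tested passed. Sirt4, a mitochondrial sirtuin, stood at 5.99, 5.88 and 4.25 FPKM in cKO, against 10.2, 8.51 and 6.89 FPKM in WT, without overlap (limma, adjusted p = 0.915). Hdac10, a class IIb enzyme that acts on polyamines, averaged 12.95 ± 0.763 FPKM in cKO and 16.3 ± 2.68 FPKM in WT (SD, n = 3 each; limma, adjusted p = 0.925). Sirt2, a mostly cytoplasmic sirtuin, averaged 64.0 ± 7.13 FPKM in cKO and 51.9 ± 6.14 FPKM in WT (adjusted p = 0.925 by limma).

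In the list for the NCoR and SMRT complex, 0 of 8 tested genes passed. The median log2 difference was -0.073 with 2 above 0 and 6 below. This list also holds DNA-binding repressors that recruit the complex, so its median is not that of subunits alone. Gps2, a core subunit, averaged 88.1 ± 9.95 FPKM in cKO and 96.8 ± 3.96 FPKM in WT, and its groups overlapped. Tbl1xr1, another core subunit, averaged 5.89 ± 0.967 FPKM in cKO and 6.65 ± 0.338 FPKM in WT. Cops2, listed for its reported corepressor role, averaged 40.9 ± 14.4 FPKM in cKO and 34.4 ± 4.20 FPKM in WT, with its highest value, 57.4 FPKM, in cKO 2.

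In the complexes of Hdac1 and Hdac2, 0 of 17 Sin3, 0 of 10 NuRD and 0 of 10 CoREST and MiDAC genes passed. Rbbp4, a histone-binding subunit shared by Sin3 and NuRD, stood at 182, 219 and 186 FPKM in cKO, against 155, 172 and 167 FPKM in WT, without overlap (limma, adjusted p = 0.925). Mbd2, the NuRD subunit that binds methylated DNA, stood at 57.3, 56.6 and 56.9 FPKM in cKO, against 51.0, 43.9 and 44.1 FPKM in WT, also without overlap (limma, adjusted p = 0.925). Elmsan1, an older symbol of the MiDAC scaffold Mideas, averaged 2.76 ± 0.695 FPKM in cKO and 5.03 ± 2.40 FPKM in WT (limma, adjusted p = 0.925).

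Of the 19 partners and kinases of class IIa enzymes, 0 passed. Ywhae, an adaptor of the family that holds phosphorylated class IIa enzymes in the cytoplasm, stood at 146, 171 and 151 FPKM in cKO, against 130, 96.1 and 115 FPKM in WT. Its groups did not overlap, and the log2 difference was 0.46 (limma, adjusted p = 0.915). Ywhah of the same family stood at 72.5, 126 and 77.1 FPKM in cKO, against 61.8, 60.1 and 62.5 FPKM in WT, again with the highest value in cKO 2. Sik1, a kinase of class IIa enzymes, averaged 2.57 ± 0.249 FPKM in cKO and 1.63 ± 0.304 FPKM in WT.

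Of the 11 acetyltransferases, which act against the deacetylases, 0 passed. Kat2b stood at 27.3, 11.9 and 25.5 FPKM in cKO, against 32.8, 36.5 and 36.5 FPKM in WT, without overlap and with cKO 2 far below the rest (log2 difference -0.77; limma, adjusted p = 0.920). Hat1, which acetylates newly made histones, averaged 62.1 ± 14.0 FPKM in cKO and 47.4 ± 1.52 FPKM in WT. In the list of other repressors and corepressors, 0 of 15 tested genes passed. The list also holds coactivators of the Ncoa family, so it is not made of repressors alone. Tle1, a Groucho-type corepressor, stood at 5.41, 1.34 and 4.81 FPKM in cKO, against 6.10, 10.2 and 7.21 FPKM in WT, without overlap (limma, adjusted p = 0.925).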

How the data were processed

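RNA was measured in 6 libraries of sorted splenic Treg, 3 cKO and 3 WT. FPKM values were deposited by the authors, from cuffnorm according to the table's name. FastQC, cutadapt and HISAT2, with builds NCBIM37 and mm9, are named in the submitters' processing notes. The sources used here give no annotation or strand setting. Identifiers were matched to symbols for 31840 of 36811 rows. limma 3.58.1 (R 4.3.3) with a variance trend was fitted to log2(FPKM + 1) of the 11979 genes averaging 1 FPKM or more, with Benjamini-Hochberg adjustment over all of them. For low genes a log2 difference on this scale is too small. Transcript lengths came from GENCODE M21 (GRCm38), a later build, and promoter sequences from RefSeq. Fragments were estimated from the modal step between low values of single-transcript genes of at least 2000 bases, covering the scale only. Python 3.11.15 handled tables. Alternatives were pseudocounts of 0.1 and 5, other filters, scalings and variance models, weights per library, blocking by replicate number, and leaving out 1 library at a time. The fit was tested on simulated data. All 9 genes are named, with up to 3 genes per further list by smallest p. Genes and lists were chosen with earlier results of these data known.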

Additional observations from a re-analysis of the deposited data

How the results depend on the processing

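Of the 18 alternatives, 2 tested Hdac9, 16 tested Sirt1 and 18 each other gene of the 9, and none of these tests passed; the filter at 0.5 FPKM was chosen after seeing the data. The count of 3 genes changed became 1 with the replicate block and ranged from 5 to 15 without 1 library. The labels do not say whether libraries with the same replicate number were paired. Their deviations correlated from -0.18 to -0.017, against -0.074 to 0.13 for other pairs. Deviations were taken from means of 3 libraries and few pairs exist, so these values cannot decide it. The count with the block therefore stands beside the main count. With libraries scaled to equal sums, all genes tested had a median of 0.18 and the 9 genes 0.14, below it. This scaling shifts all genes together, so the positive values of Hdac2, Hdac3, Hdac5 and Ncor1 under it (0.039, 0.15, 0.13 and 0.14) come with that shift and lie below the median of all genes. Signs also turned, without passing, for Hdac1 (-0.0040 after quantile normalization) and Hdac3 (0.17 with library quality weights), where the cause was not tested. Without 1 library the range was -0.012 to 0.21 for Hdac1, -0.18 to -0.068 for Hdac2, -0.11 to 0.17 for Hdac3, -0.26 to -0.041 for Hdac4, -0.17 to 0.15 for Hdac5, 0.086 to 0.63 for Hdac7, -0.71 to -0.44 for Hdac9, -0.20 to 0.11 for Ncor1, 0.050 to 0.65 for Sirt1 and -0.10 to 0.068 for the median of the 9. Hdac4, Hdac7, Hdac9 and Sirt1 kept their sign in each alternative that gave a value. For Hdac9, whose groups do not overlap, only the changes of scaling could have turned it. The estimates of few fragments for Hdac9 and Sirt1 limit their precision, and the part of depth in their spread was not tested.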
